A study of Triticum aestivum with 9 samples.

Results

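Grain of bread wheat (Triticum aestivum) harvested at 20 days post-anthesis (phase P3) was compared with grain harvested at 11 days (phase P1), which gives the net change in transcript levels over this stretch of grain filling. All 6 arrays are of field-grown cultivar Jimai 20, 3 for P3 and 3 for P1, and they are part of a series of 9 arrays whose other 3 are of an intermediate harvest at 15 days (P2). The labels describe the tissue as developing seed, with plots as biological replicates under local production management, and give no genetic or chemical treatment. Each array is an Affymetrix wheat GeneChip, on which a probe set of short oligonucleotides reads a transcript, and the values are scaled signals in arbitrary units. All probe sets except the Affymetrix and reporter controls were taken, 61115 in all, and 36669 of them were tested after those with the lowest mean signal had been left out. Of the analysed probe sets, 1273 carry a gene symbol in the platform annotation. For 1073 of these, covering 669 genes, the symbol is a bare LOC number with no informative synonym, and these LOC-only genes are described first.

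Over grain filling the starchy endosperm packs its cells with starch and with storage proteins such as gliadins and glutenins, the aleurone layer around it stays alive, and the embryo matures and acquires tolerance of drying. The pericarp, green and photosynthetic in young grain, loses its chlorophyll as the grain ripens. Whole grain mixes these tissues, so fewer cells of a type and less RNA per cell cannot be told apart. Wheat is hexaploid, and related gene copies can hybridise to one probe set, which leaves the level of any single copy uncertain.

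Transcripts of 3067 probe sets were higher at P3 and those of 1746 were lower, 8.36% and 4.76% of the 36669 tested. A call required an adjusted p under 0.05 by limma and a change of at least 2-fold. In 17501 probe sets (47.7%) the 3 P3 arrays did not overlap the 3 P1 arrays. The median log2 change of all tested probe sets was 0.067. Rises made up 63.7% of the calls on the deposited signals, 55.4% after quantile normalization, 48.0% after scaling the arrays to their medians, 48.6% after scaling to the hybridization controls and 74.0% after scaling to the poly-A controls. Which direction held more calls was thus set by the scaling, which moved the median of all probe sets to -0.034, -0.107, -0.100 and 0.194 in that order, and changes are relative to it.

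**Figure D1:**
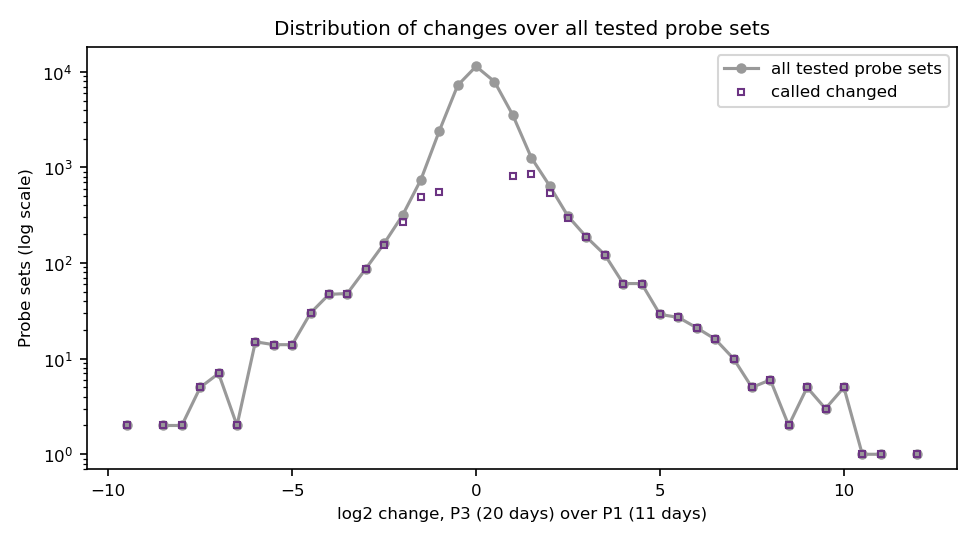
Number of probe sets (log scale) by log2 change of P3 over P1 in bins of 0.5, for all 36669 tested probe sets (circles) and for the 3067 higher and 1746 lower ones called changed (squares). Most probe sets lie near 0, and the right tail, higher at P3, holds more calls than the left on the deposited signals.

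The reporter controls set the background of an array through their 95th percentile, which lay between 99.7 and 115.7 on the P3 arrays and between 89.4 and 103.5 on the P1 arrays. Of the rises, 907 were of probe sets below background on all 3 P1 arrays, and 410 of the falls were of probe sets below it on all 3 P3 arrays. Such a change is printed as a lower bound, in which every array of the dim phase counts as its background (or as the probe set's signal where that is higher) before log2 means are compared. With those changes at their bound, 707 rises and 407 falls were of at least 4-fold, against 1090 and 547 by the fitted values, and at 64-fold 33 and 5, against 65 and 24. Log2 signals correlated at 0.871 to 0.882 for the 9 pairs of a P3 with a P1 array and at 0.952 to 0.962 for the 6 pairs within a phase; these coefficients run over probe sets, which do not stand for replicates. The 3-prime to 5-prime log2 signal ratio of 4 wheat control transcripts, a sign of RNA quality, averaged 2.53 ± 0.07 on the P3 arrays and 3.32 ± 0.24 on the P1 arrays (SD, n = 3 each). With that ratio as a covariate in the fit, chosen after seeing the data, 1303 probe sets were called higher and 839 lower, and it is named below where it ended a call.

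The LOC-only genes changed in both directions. Of the 669, 583 had a tested probe set and 86 did not. With each gene represented by its probe set of highest mean log2 signal, 77 were higher at P3, 45 were lower and 461 were not called, and the median log2 change was 0.01. With changes against a phase below background at their bound, 27 rises and 7 falls were of at least 4-fold, and 11 and 3 of at least 8-fold. After median scaling 68 genes were higher and 62 lower, after scaling to the poly-A controls 92 and 31, and with the ratio as a covariate 47 and 32. Counted over all 865 tested probe sets of these genes, 113 (13.1%) were higher and 62 (7.17%) lower, against 8.22% and 4.67% of the 35637 tested probe sets without a gene symbol. The share called also moved with signal: 6.80% were called higher and 2.26% lower among the 9759 tested probe sets with a mean signal under 100, against 7.72% and 8.54% among the 2435 between 3000 and 10000. The median standard error of a log2 change was 0.11 over the probe sets of LOC-only genes and 0.24 over those without a gene symbol. In that dimmest class it was 0.54. The shares of named and unnamed probe sets are thus not alike in precision.

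**Figure D2:**
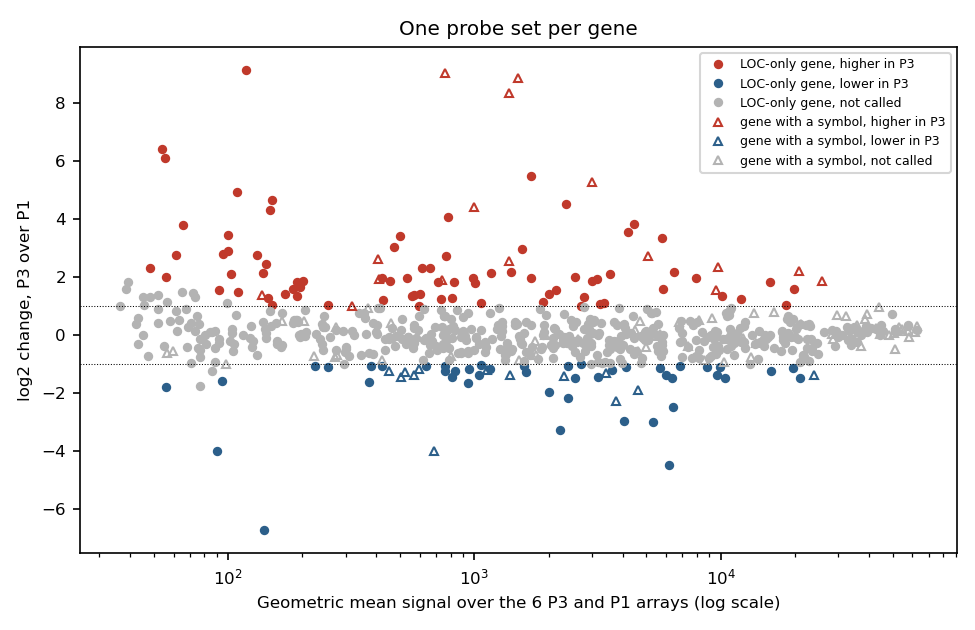
Log2 change of P3 over P1 (vertical) against the geometric mean signal over the 6 arrays (horizontal, log scale, arbitrary units), 1 point per gene, with circles for the 583 LOC-only genes and triangles for the 95 genes with an informative symbol. Dotted lines mark 2-fold. Points called higher lie above the upper line at all signals, and the brightest genes lie close to 0.

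Among the 15 LOC-only genes with the largest rises by the fitted log2 change, 7 were below background on every P1 array. LOC543201 led them, with signals of 2819, 2686 and 2948 on the P3 arrays, against 7.05, 3.997 and 4.30 on the P1 arrays. It was thus far above background on each P3 array and far below it on each P1 array, and it rose at least 30-fold (limma adjusted p = 7.92e-11). LOC543317 gave 438, 513 and 543 at P3, against 6.34, 5.78 and 5.40 at P1, and rose at least 5.28-fold (adjusted p = 2.96e-06). For LOC542794 the signals were 419, 453 and 523 at P3, against 6.31, 5.45 and 8.50 at P1, and the gene rose at least 4.93-fold (limma adjusted p = 1.25e-05). These probe sets had next to no signal at 11 days, although an unnamed one that shares its identifier stem with that of LOC543317 was at 14739 at P3 and 11821 at P1 (log2 change 0.31) and was not called. LOC100037541 was at 827, 802 and 669 at P3, against 37.2, 58.6 and 11.97 at P1, and rose at least 8.12-fold. LOC543195, at 534, 705 and 584 at P3, against 45.9, 20.6 and 7.81 at P1, rose at least 6.43-fold. Their P1 values differed by several fold between arrays, as signals this dim do. The others of this kind were LOC542873 (232 to 272 at P3 and 3.49 to 58.9 at P1, a rise of at least 2.61-fold) and LOC543438 (302 to 379 at P3 and 8.25 to 72.2 at P1, at least 3.52-fold). LOC543142 was below background on 2 of 3 P1 arrays, with 665, 739.6 and 593 at P3, against 26.5, 91.8 and 14.5 at P1; its fitted log2 change of 4.34 thus rests on dim values. Of these 8 genes 6 lost their call once the ratio was a covariate. LOC542794 had a log2 change of 5.60 there, against 6.12 without the covariate (adjusted p = 0.12 with it). For LOC543195 the value with the covariate was 1.78, against 4.95 without it (adjusted p = 0.38), for LOC100037541 it was 1.60, against 4.69 (adjusted p = 0.37), and for LOC543142 it was 1.73, against 4.34 (adjusted p = 0.51). The log2 changes of LOC542873 and LOC543438 turned to -0.76 and -0.64 there (adjusted p = 0.89 and 0.84). LOC543201 and LOC543317 kept their calls.

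A second set of rising LOC-only genes was already measurable at P1 and reached signals above 10000 on every P3 array. LOC543150 had 11319.7, 10546 and 12481 on the P3 arrays, against 222, 226 and 324 on the P1 arrays. This is a 45.1-fold rise (log2 change 5.50, SE 0.13, adjusted p = 1.08e-11), and the 2 phases lay far apart. LOC606307 had 10318, 11205 and 12588 at P3, against 548, 466 and 463 at P1 and rose 23.1-fold (log2 change 4.53, SE 0.10, adjusted p = 4.91e-12). LOC100125738 had 16431, 16052 and 18028 at P3, against 1236, 1186 and 1141 at P1, 14.2-fold higher (log2 change 3.82, SE 0.07, adjusted p = 1.23e-12). The P1 arrays of LOC100125738 lay close together. LOC543263 was at 14002, 13923 and 15422 at P3, against 1199, 1283 and 1213 at P1, an 11.7-fold rise, and LOC542830 at 17316, 17804 and 20255 at P3, against 1857, 1836 and 1749 at P1, a 10.2-fold rise. In each of these 5 genes the lowest P3 array stood many-fold above the highest P1 array. The remaining members of the 15 rose to intermediate signals: LOC542803 16.8-fold, with 3205 ± 149 at P3 and 192 ± 21.3 at P1 (SD, n = 3 each), and LOC543396 10.6-fold, with 1629 ± 104 at P3 and 169 ± 94.5 at P1. The smallest rise inside this set of 15 had a log2 change of 3.34, and the next gene outside it, LOC778400, one of 3.04.

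**Figure D3:**
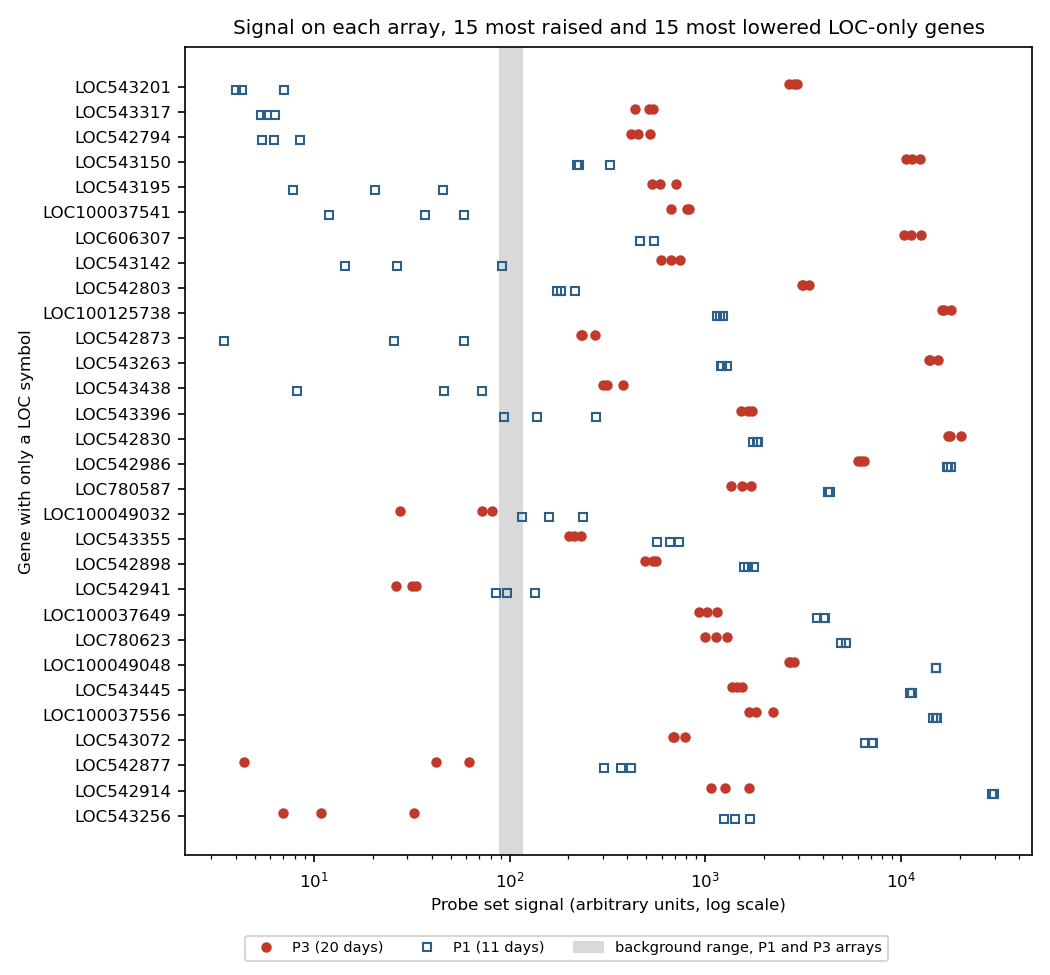
Signal of each LOC-only gene's probe set on each array (horizontal, log scale, arbitrary units) for the 15 largest rises and 15 largest falls, in order of log2 change with the largest rise at the top. Filled red circles are the 3 P3 arrays, open blue squares the 3 P1 arrays and the grey band the range of background. The order uses fitted values, also where a phase is below background. The phases do not overlap in any of the 30 genes, as the rule that chose them requires, and 7 of the rising genes lie left of the band on all P1 arrays.

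The falls of LOC-only genes were smaller in number and, beyond the first few, in size. LOC542914 fell most among the bright ones, with 1261, 1068 and 1664 on the P3 arrays, against 29554, 28882 and 29273 on the P1 arrays. At P1 its 3 arrays were nearly equal, and it fell 22.3-fold (log2 change -4.48, SE 0.13, adjusted p = 7.88e-11). LOC543256 had 10.9, 7.02 and 32.6 at P3, against 1679.8, 1248 and 1417 at P1, and fell at least 13.2-fold to below background on every P3 array (adjusted p = 9.40e-08). LOC543072 was at 691, 681 and 789 at P3, against 7157, 7050.3 and 6523 at P1, 9.61-fold lower (log2 change -3.26, SE 0.08, adjusted p = 1.42e-11). These 3 genes were clearly expressed at 11 days and lost most or all of that signal by 20 days. LOC100037556 had 1674, 1807 and 2215 at P3, against 14974, 15125 and 14495 at P1 and fell 7.88-fold. LOC543445 had 1529.8, 1447 and 1368 at P3, against 11107, 11299 and 11374 at P1 and fell 7.78-fold. LOC100049048 had 2712, 2664 and 2834 at P3, against 15047, 14959.9 and 15103 at P1 and fell 5.5-fold. All 3 were above 10000 on each P1 array. So was LOC542986, at 6024, 6484 and 6235 at P3, against 17982, 17329 and 17025 at P1, with a fall of 2.79-fold.

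Falls from lower signals completed the 15. LOC780623 (4.52-fold), LOC100037649 (3.84-fold) and LOC780587 (2.8-fold) had P1 signals many-fold above background, with 997 to 1289 at P3 and 4917 to 5234 at P1, 924 to 1146 at P3 and 3717 to 4074 at P1, and 1349 to 1708 at P3 and 4239.7 to 4323 at P1. LOC542898 fell 3.14-fold, with 530.3 ± 33.5 at P3 and 1666 ± 102 at P1 (SD, n = 3 each). LOC543355 fell 3.02-fold, with 216 ± 16.03 at P3 and 654 ± 83.1 at P1, and with the ratio as a covariate its log2 change was -1.19 (adjusted p = 0.24), against -1.59 without it. None of these 5 genes went below background. LOC542877, at 4.41, 42.3 and 62.5 at P3, against 416, 302 and 370.2 at P1, fell at least 3.3-fold to below background (adjusted p = 0.00271, or 0.59 with the covariate, where the log2 change was -3.02). The calls of LOC100049032 (27.6 to 81.4 at P3 and 116 to 238 at P1, at least 1.51-fold) and LOC542941 (26.5 to 33.3 at P3 and 85.3 to 135 at P1) rest on dim signals. LOC542941 gives no fold because its mean log2 signal at P1 was no higher than that of P3 with each P3 array counted as its background. Both calls ended when signals were raised to background (log2 changes of -0.59 and -0.02), without P1 replicate 3 (-1.32 and -1.58, adjusted p = 0.051 and 0.06) and with the covariate (-0.03 and -0.37). The choice of 15 falls cut closely, at a log2 change of -1.48177 inside and -1.47869 outside, the next gene being LOC100037521.

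Where a LOC-only gene of these 30 had a further tested probe set, it was called the same way in 9 of 10, while 13.1% of all tested probe sets were called. Most of the 10 share an identifier stem with the named probe set, so they are not independent of it. LOC100037556 had 4 probe sets, and all fell, the other 3 with log2 changes of -2.94, -4.18 and -3.04. A further probe set of LOC543150 was at 548 at P3 and 104 at P1 (log2 change 2.46) and was called. The signal of the other LOC542830 probe set was 10603 at P3 and 1381 at P1 (log2 change 2.94), also a call. The other probe sets of LOC543072 and LOC543355 fell too, with log2 changes of -3.51 and -2.77. The exception was LOC543438, whose other probe set, at 54.1 at P3 and 67.7 at P1 (log2 change -0.61), was not called. The other probe sets of LOC542986 fell as well, with log2 changes of -1.41 and -1.44. Probe sets whose identifiers share a stem may come from one transcript cluster. Of 10 such probe sets outside the same gene, found beside 6 of these genes, 3 were called the same way and 7 were not called. The 3 were that of LOC100037518 beside LOC606307, at 1057 at P3 and 270.4 at P1 (log2 change 1.96), an unnamed one beside LOC100125738 (1.70), and that of LOC100037521 beside LOC542986, at 3813 at P3 and 10622 at P1 (log2 change -1.48). The uncalled ones were the one beside LOC543317 given above, 4 beside LOC542898 (-0.05 to -0.54) and 2 beside LOC100049032 (-0.36 and -0.30).

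Over all named genes, 226 had more than 1 tested probe set. Of these 65 had at least 1 call, 25 had every probe set called the same way, 40 had some called and some not, and 0 had calls in opposite directions. In 15 of the 65 an uncalled probe set had a change of the opposite sign. AGA.1 is one of them, with log2 changes of -1.16 and 0.24, the positive one from one that stayed under background on all 6 arrays.

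The LOC-only genes with the highest mean signals did not change by the criteria used. LOC778422 was at 60556, 60653 and 81789.6 on the P3 arrays, against 63279, 62679 and 51652 on the P1 arrays. The groups overlap in part, and the log2 change was 0.18 (adjusted p = 0.296). LOC100125699 (0.36), LOC542894 (0.34), LOC100037539 (0.21) and LOC780684 (0.16) had similarly small log2 changes, with adjusted p-values of 0.0231, 0.0345, 0.252 and 0.358. A second probe set of LOC100125699, at 44003 at P3 and 21950.4 at P1 (log2 change 0.99), had a larger change just under the fold limit. In all 5 genes P3 replicate 3 was the highest of the P3 arrays. Over the 209 tested probe sets with a mean signal of at least 30000, P3 replicate 3 had a median of 1.26 times the mean of the other 2 P3 arrays, and between 1000 and 10000 of 1.02 times. Of these 209, 5 were called higher (2.39%) and 0 lower, and 86 (41.1%) had an unadjusted p under 0.05, against 42.8% of all tested probe sets. Their median log2 change was 0.16. The part of that array in the small positive changes of bright genes was not tested beyond leaving it out, which left the overall counts at 2919 higher and 1714 lower.

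Some named genes, most of them LOC-only, lie next to one another in RefSeq's gene order on the assembly IWGSC CS RefSeq v2.1. With at most 2 genes between them, 15 pairs of tested genes were found among 669 named genes with a place in that order. Of these, 3 pairs, all of LOC-only genes, had both members higher, 7 had 1 called, 5 had none and 0 had opposite calls. Among all tested LOC-only genes 77 of 583 were higher and 45 lower, and among genes with a symbol 16 and 13 of 95. Whether neighbours change together more often than other genes was not tested. In the adjacent pair LOC543197 and LOC543196, LOC543197 was at 2995, 3108 and 2982 at P3, against 659.7, 629.5 and 687 at P1. LOC543196 was at 2338, 2326 and 2707 at P3, against 527, 537 and 596 at P1. The 2 genes had nearly equal log2 changes of 2.20 and 2.15. The other such pairs were LOC606352 with LOC543143 (1.89 and 1.07) and LOC543084 with LOC542804 (1.06 and 2.74). A call in 1 member of a pair also occurred between adjacent genes: LOC778400 was called higher (3.04), with 1326, 1342 and 1382 at P3, against 144, 176 and 176 at P1, while LOC778385 beside it was not called (0.09).

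The probe sets without a gene symbol were ranked by their fitted log2 change. As the changes of those named here are bounds, their order is not settled. The first 2 rises were of probe sets that share an identifier stem. Ta.9227.1.S1_x_at had 43434, 41758 and 53998 on the P3 arrays, against 12.1, 9.61 and 13.1 on the P1 arrays, which is at least 491-fold higher (adjusted p = 2.19e-14). Ta.9227.1.S1_at had 43158, 42901 and 57427 at P3, against 45.01, 10.8 and 35.01 at P1, at least 504-fold higher. Both were below background on every P1 array and among the brightest probe sets on every P3 array. In the other direction, Ta.27774.2.S1_at had 7.77, 3.32 and 4.83 at P3, against 3651, 3651 and 3659 at P1 and fell at least 33.6-fold (adjusted p = 5.21e-07). TaAffx.128643.3.S1_at had 3.23, 7.42 and 30.4 at P3, against 5797, 5136 and 5744 at P1 and fell at least 51-fold. Both were below background on every P3 array and many-fold above it on every P1 array.

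Genes with an informative symbol or synonym were 102, of which 95 had a tested probe set, and 16 were higher at P3 and 13 lower. Of the 167 tested probe sets of these genes 14.4% were higher and 10.8% lower, against 8.36% and 4.76% of all tested. Seed maturation genes were among those that rose most by the fitted log2 change. All 9 tested probe sets of the late embryogenesis and desiccation list (4 genes) were higher, with a median log2 change of 8.35, against 0.07 over all tested probe sets. The whole list holds 5 genes and 10 probe sets, and the rest was left out by the filter on low mean signal. That filter took the mean of all 9 arrays, so a probe set dim at P1 can pass it through its later signal. Of the 9, 4 were below background on all P1 arrays, and with these at their bound the median was the same. That median is the value of an EM probe set below background on 1 of 3 P1 arrays, which has no bound, so it rests in part on a dim signal. EM, for an Em protein, which accumulates as embryos mature, was at 39897, 40167 and 46946 at P3, against 34.2, 50.5 and 35.7 at P1, at least 450-fold higher. Its other probe set gave 23754, 22530.5 and 29578 at P3, against 135, 31.9 and 105 at P1. EMH2, a second Em gene, rose at least 393-fold and at least 358-fold on 2 probe sets, and the remaining one, below background on 2 of 3 P1 arrays, had a log2 change of 8.87. The dehydrin gene Rab15 was at 19046, 16843 and 20412 at P3, against 615, 435 and 417 at P1 on its brightest probe set (38.9-fold higher); another had a log2 change of 5.61, and the dimmest rose at least 61.9-fold. LEA1, whose product belongs to the late embryogenesis abundant proteins, was already bright at P1, with 16909, 17532 and 15292 at P3, against 5070.1, 6025 and 5707 at P1, and rose 2.96-fold. WGA2, wheat germ agglutinin, a lectin of the embryo, had 17526, 16431 and 18306 at P3, against 94.8, 16.3 and 23.3 at P1, at least 185-fold higher. hsp16.9A, for a small chaperone induced by heat, had 4771, 4502 and 4574 at P3, against 245, 183 and 227 at P1 (21.3-fold higher).

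Inhibitor and defence protein genes of the endosperm rose in part. Of 13 probe sets of amylase, protease and xylanase inhibitors, 5 were higher, 1 lower and 7 not called (median log2 change 0.57). Of all tested probe sets 8.36% were higher and 4.76% lower. The serpins, which block proteases, included Serpin-Z1C at 13982, 13938 and 11408 at P3, against 1909.6, 2082 and 1942 at P1 (6.6-fold higher) and Serpin-Z2A at 3509.5, 3363 and 3286 at P3, against 485, 528 and 719.6 at P1 (5.95-fold higher). Serpin-Z2B had 20542, 20415 and 26116 at P3, against 4321, 4240.3 and 4322 at P1 (5.17-fold). XIP-I, a xylanase inhibitor, rose on both probe sets, with 40479, 40817 and 54749 at P3, against 9586, 9669 and 9775 at P1 on the brighter. All 4 come from the rule that names genes called without overlap. In contrast wci, placed in the list by its synonym, was lower, at 14645, 13793 and 16630.4 at P3, against 41122, 39441 and 34780.3 at P1 (2.56-fold). The uncalled probe set of smallest adjusted p was that of another serpin, WSZ1b (44198 to 51865 at P3 and 30666 to 32651 at P1, log2 change 0.57). Of 6 probe sets of puroindoline and thionin genes, small proteins of which the thionins are antimicrobial, 2 were higher and 0 lower. TTHV had 47396, 44718 and 57588 at P3, against 13459, 13848 and 13317 at P1 (3.66-fold higher). Pur-A1 rose 2.13-fold on 1 of 2 probe sets, with 51955 ± 7773 at P3 and 24265 ± 1886 at P1, and its log2 change was 0.91 after quantile normalization, 0.92 after median scaling or hybridization scaling, 0.62 with the covariate and 0.97 without P3 replicate 3, each of which ended the call. THI1.2 (62248 ± 10258 at P3 and 31756 ± 3453 at P1) missed the fold limit at a log2 change of 0.96, and passed it after scaling to the poly-A controls (1.09) and without P1 replicate 2 (1.04), P3 replicate 1 (1.02) or P3 replicate 2 (1.04).

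Single genes of other lists rose as well. PEAMT1, a methyltransferase of choline synthesis, was at 931, 1001 and 1106 at P3, against 127, 164 and 206 at P1 (6.22-fold higher), and PIMT, a methyltransferase that acts on damaged proteins, at 727, 784 and 918 at P3, against 165, 279.8 and 197 at P1 (3.86-fold). They were the 2 of 5 probe sets of the methyl transfer list that rose, and SAHH (log2 changes of -0.58 and -0.65) and COMT1 (0.38) were not called. With the covariate PIMT had a log2 change of 1.71, against 1.95 without it (adjusted p = 0.075 with it). The fructan exohydrolase 6-FEH rose 3.73-fold on 1 of 3 probe sets (1478, 1658 and 1199 at P3, against 331, 464 and 369 at P1), the only call among 4 probe sets of its list, with 0.89 on the next. ALMT1, a malate transporter, was at 217, 219 and 233 at P3, against 70.002, 92.8 and 94.4 at P1 (log2 change 1.39, or 1.78 with the covariate, where adjusted p was 0.15 and the SE 0.64), below background on 1 of 3 P1 arrays. It was the 1 of 5 transporter probe sets called, and the next by adjusted p was one of the proton pump gene ha1 (-0.26). WZF1, outside every list, was called at a log2 change of 1.02 and is named after its value was seen.

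**Figure D4:**
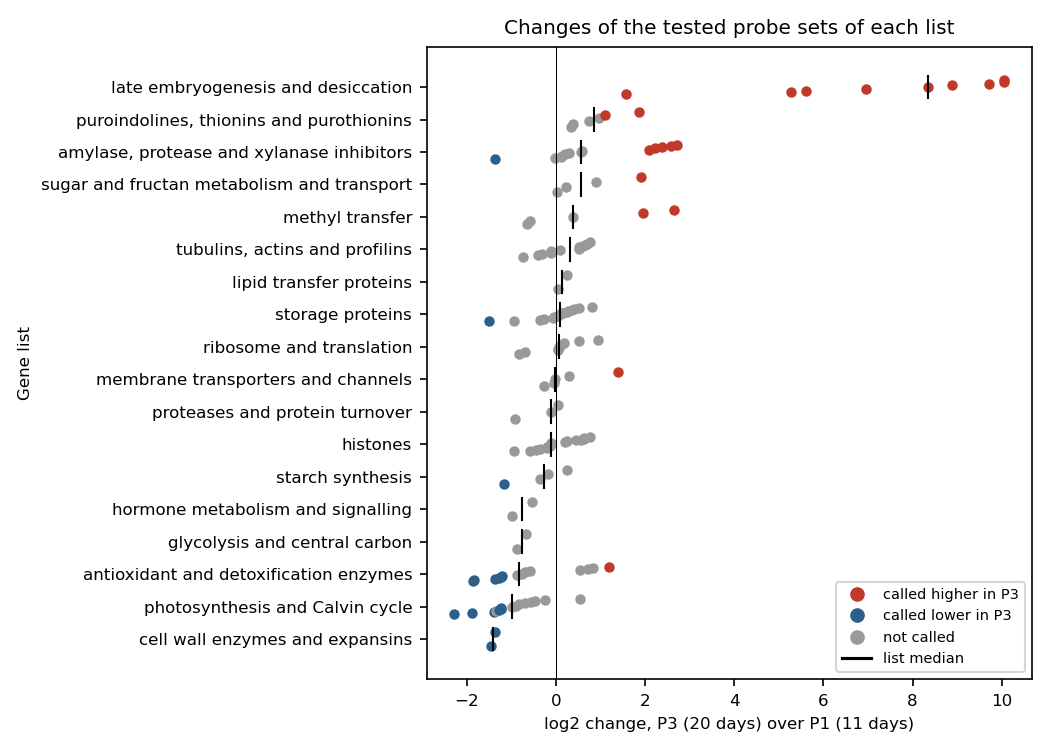
Log2 change of P3 over P1 (horizontal) for each tested probe set of the gene lists with at least 2 tested probe sets, in order of their medians (black bars). Red points were called higher at P3, blue points lower and grey points not called. Fitted values are drawn, also where a phase is below background. All 9 late embryogenesis and desiccation points lie to the right of 1, and the 6 called points of photosynthesis to the left of -1.

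Photosynthesis and Calvin cycle transcripts were lower in 6 of 15 tested probe sets and higher in 0 (median log2 change -0.99). Over all tested probe sets 4.76% were lower and 8.36% higher. Of the 36 probe sets in that list, 21 were not tested. PsbO and PsbP, which help photosystem II to split water, were at 1731, 1564 and 1815 at P3, against 7912, 7741 and 9204 at P1 and at 2377, 2267 and 2557 at P3, against 8867, 9297 and 8569 at P1, or 4.86-fold and 3.72-fold lower. A dimmer PsbP probe set fell as well (-1.23). The Calvin cycle enzymes PRK, phosphoribulokinase, and FBP, fructose bisphosphatase, fell 2.64-fold and 2.34-fold, with 1412 to 1435 at P3 and 3586 to 3862 at P1 for PRK, and 257 to 346 at P3 and 627 to 745 at P1 for FBP. The Rieske protein gene petC had 2071, 2104 and 2394 at P3, against 5319.8, 5383 and 5265 at P1 (2.44-fold lower). No P3 array of these 5 genes overlapped a P1 array, which the rule that chose PsbO, PsbP, PRK and petC requires. The phases did not overlap in 47.7% of all tested probe sets. The rubisco large subunit gene rbcl had 9 tested probe sets and no call, and the one of smallest adjusted p was at 21776, 21289 and 26607 at P3, against 49746, 47212 and 41021 at P1, with a log2 change of -0.99 that passed 2-fold after median scaling (-1.16), quantile normalization (-1.16) or hybridization scaling (-1.16), with the covariate (-1.41), and without P1 replicate 3 (-1.07) or P3 replicate 3 (-1.09).

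Antioxidant and detoxification transcripts were lower in 6 of 14 probe sets and higher in 1 (median log2 change -0.82), against 4.76% lower and 8.36% higher of all tested. CAT1, catalase, was at 286, 386 and 349.8 at P3, against 905, 829.9 and 721 at P1 (2.41-fold lower), and Trx-M, a plastid thioredoxin, at 776, 820.1 and 647 at P3, against 1707, 1775 and 1654 at P1 (2.3-fold). A second CAT1 probe set, below background on all 6 arrays, had a log2 change of 0.82 and was not called. Of 4 Prx1 probe sets 3 fell, the brightest with 370.2, 350.3 and 344 at P3, against 948, 806 and 1007 at P1. On 1 of 2 probe sets lgul, a glyoxalase, fell at least 2.33-fold, to below background. With the covariate 2 of the 6 falls stayed called and the 4 of Prx1 and lgul ended. For lgul the fitted log2 change was -2.11 with the covariate, against -1.84 without it. For Prx1 the values with it were -2.14, -1.35 and -1.06, against -1.87, -1.24 and -1.37 without it, so 3 of these 4 falls were no smaller there. The single rise was a dim probe set of PER1 (195 to 215 at P3 and 63.5 to 129 at P1), which ended in 5 of the alternatives, and the bright PER1 probe set, at 34226, 34467 and 47227 at P3, against 21545, 25393 and 23093 at P1, was not called (log2 change 0.71). The uncalled probe set of smallest adjusted p besides was one of GSTZ1, a glutathione transferase (-0.70). Another GSTZ1 probe set (-0.89) was called lower after quantile normalization (-1.01), median scaling (-1.06) or hybridization scaling (-1.05) and without P3 replicate 2 (-1.04).

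In carbohydrate metabolism the falls were of single genes. BMY1, a beta-amylase, was at 205, 133 and 189 at P3, against 2677, 2821 and 2679 at P1, 15.8-fold lower (log2 change -3.98, SE 0.15, adjusted p = 6.34e-10). AGA.1, a subunit of ADP-glucose pyrophosphorylase, the first committed enzyme of starch synthesis, was at 362, 439.96 and 398 at P3, against 887, 845 and 944 at P1 on its brighter probe set (2.24-fold lower, with a log2 change of -0.84 and adjusted p = 0.17 with the covariate, against -1.16 without it). It was the 1 of 4 starch synthesis probe sets called (median log2 change -0.27). The small subunit gene AGP-S, at 32771 ± 1624 at P3 and 41986 ± 1885 at P1, had a log2 change of -0.36 and was not called. The granule-bound starch synthase gene GBSS-I was at 11581 ± 836 at P3 and 13143 ± 307 at P1 (-0.18). Both tested probe sets of the cell wall list fell: XTH, a xyloglucan enzyme, at 249.9, 349.9 and 320.04 at P3, against 823, 794 and 868 at P1, and Glc1 at 747, 756 and 1148 at P3, against 2136, 2302 and 2321 at P1. With the covariate XTH had a log2 change of -1.21, against -1.45 without it (adjusted p = 0.14), and Glc1 one of -1.45, against -1.38 (adjusted p = 0.068).

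Storage protein genes were bright in both phases, and 16 of their 17 probe sets were not called (median log2 change 0.08). Unadjusted p was under 0.05 in 8 of the 17, against 42.8% of all tested probe sets. Gli-D2-16, an alpha-gliadin gene and the brightest, was at 53727, 58135 and 86318 at P3, against 62424, 61531 and 53794 at P1 (log2 change 0.13), with overlapping phases. The single fall was a dim LMW-GS probe set (20.1 to 76.3 at P3 and 96.7 to 206 at P1, at least 1.18-fold lower), whose call ended in 9 alternatives, among them those without P1 replicate 2, P1 replicate 3 and P3 replicate 3. The uncalled probe set of smallest adjusted p was one of avnlb, an avenin-like gene, at 11597, 10779 and 10954 at P3, against 20055, 23246 and 20871 at P1, with a log2 change of -0.94 that passed 2-fold after median scaling (-1.12), quantile normalization (-1.03) or hybridization scaling (-1.11) and with the covariate (-1.01). Its other 3 probe sets had log2 changes of 0.27, -0.04 and -0.07.

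No probe set was called by limma in 8 further lists. An unadjusted p under 0.05, which 42.8% of all tested probe sets had, is counted for each. For histones this was 10 of 18 (median log2 change -0.12), with the brightest, of wcH2A-9, at 11883 ± 730.4 at P3 and 12744 ± 367 at P1 and wcH2B-8 at 3172 ± 83.5 at P3 and 1887 ± 159 at P1. Another wcH2A-9 probe set, at 1017 ± 139.8 at P3 and 1965 ± 278 at P1 (log2 change -0.95), was called lower after median scaling (-1.12) or hybridization scaling (-1.12) and without P1 replicate 2 (-1.07) or P3 replicate 3 (-1.05). For tubulins and profilins it was 9 of 12 (median 0.30), the brightest, TUBA, being at 37551 ± 5576 at P3 and 34841 ± 2136 at P1, and tubb1 and tubb3 having opposite log2 changes of 0.77 and -0.74. Translation factors and ribosomal proteins had 4 of 9, with Eif4B at a log2 change of -0.84 and the bright elongation factor gene TEF1 at 0.04. Glycolysis had 2 of 2 (Pgk-1 -0.87, GAPN -0.67), gibberellin oxidases 1 of 2 (GA20ox1d -0.99, GA20ox1a -0.53), the ubiquitin-conjugating enzyme UBC1 1 of 3 (-0.92 at most, and 0.04 on the brightest), the immunophilin FKBP70 1 of 1 (0.54), and the lipid transfer protein gene LTP3 0 of 2 (0.24 and 0.05). After median scaling Eif4B (-1.01), Pgk-1 (-1.04), GA20ox1d (-1.16) and UBC1 (-1.09) were called lower. Hybridization scaling gave such a call for Eif4B (-1.01), Pgk-1 (-1.03) and UBC1 (-1.09), and quantile normalization for GA20ox1d (-1.11) and UBC1 (-1.04), as did leaving out P1 replicate 2 (-1.21) or P3 replicate 2 (-1.10) for UBC1. Matching by symbol and synonym placed no gene in the lists for the cell cycle, transcription factors and protein kinases. This does not show that no named gene is of these kinds.

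The cell type markers are largely members of the gene groups above, so their levels describe the same probe sets and add no separate evidence. The 3 embryo markers EM, EMH2 and WGA2 were all higher, and their summed signal was 71774, 69297 and 85286 at P3, against 299, 98.6 and 225 at P1. Each gene enters by its probe set of highest mean log2 signal, for EM the one given second above, and on these WGA2 was below background on all 3 P1 arrays, EMH2 on 2 and EM on 1. The 3 green pericarp markers PsbO, PsbP and PRK were all lower, with sums of 5527, 5265 and 5784 at P3, against 20642, 20863 and 21359 at P1. These sums depend on the choice of markers. The set leaves out petC and FBP, which were called lower. It also leaves out rbcl, whose brightest probe set, at 43302.5 at P3 and 60238 at P1 (log2 change -0.48), was not called. The aleurone and maturing seed markers PER1, LEA1 and Rab15 summed to 70180.3, 68842 and 82932 at P3, against 27231, 31852 and 29217 at P1, and 2 of 3 were called. Of 8 starchy endosperm markers, 5 gliadin genes with GBSS-I, AGP-S and TTHV, only TTHV was called, and the sums were 312632, 319748 and 381649 at P3, against 279920.00, 297828 and 263504 at P1. This set leaves out AGA.1, the starch synthesis gene that was called lower (log2 change -1.16). It also takes TTHV, the largest rise of the puroindoline and thionin list, without the other genes of that list, so the sums depend on the choice. The part of changed tissue proportions in any result above was not tested. No marker of the 4 tissues was below background on all 3 P3 arrays.

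**Figure D5:**
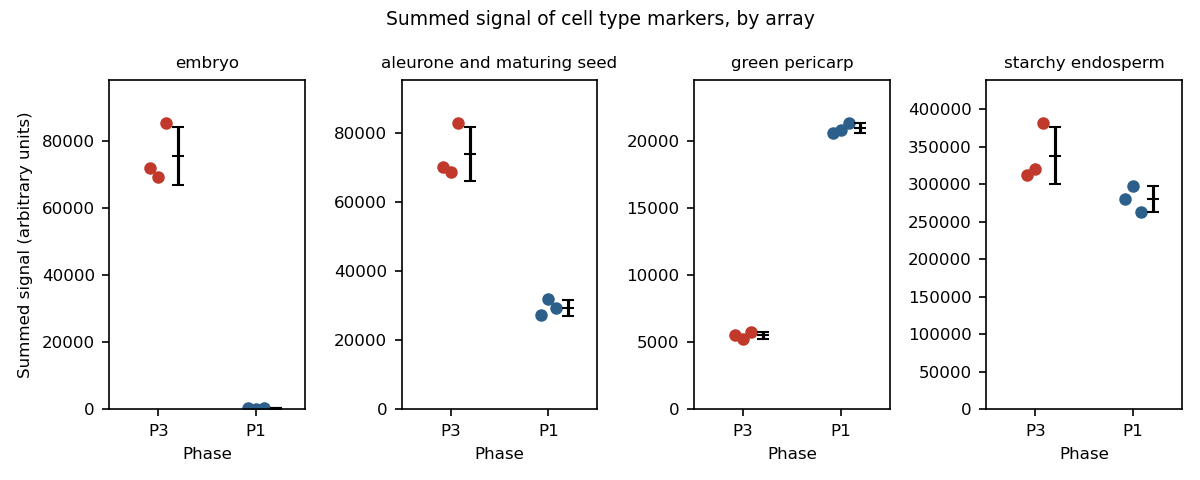
Summed signal (arbitrary units, each panel with its own axis from 0) of the markers of 4 grain tissues, 1 point per array, with P3 left of P1 in each panel and the mean and SD of 3 arrays beside the points. Embryo sums are higher and pericarp sums lower at P3, as for the called genes that make them up, and starchy endosperm sums differ least in proportion.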

How the data were processed

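Total RNA of whole grain was hybridised to 9 arrays, 3 per phase, per the labels' protocols. The deposited values are linear intensity signals of 61290 probe sets, which the authors made with MAS5 per the submitters' processing notes (version not given in the sources used here). Their mean, with 2% trimmed at each end, was 500.1 on each array. Detection calls were not used here. Controls (111 Affymetrix, 64 reporter) were left out, as were the 40% of probe sets with the lowest mean log2 signal, under a geometric mean of 44.8. Arrays number 3 per group, which limits precision, and p-values measure the spread between plots.

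limma 3.58.1 in R 4.3.3 was fitted to log2 signals (pseudocount 0) of all 9 arrays, with phase as the factor, an intensity trend and 6 residual degrees of freedom. P-values were Benjamini-Hochberg adjusted over 36669 probe sets. SE is limma's standard error of a log2 change. The fit was checked on simulated data. Groups came from sample titles. Deviations of same-numbered P3 and P1 replicates correlated only weakly, and numbers were not used as pairs in the main fit.

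Of 771 annotated genes, 770 matched the RefSeq gene table by identifier, used for synonyms and gene order only. The genes named are, by a fixed rule, the 15 highest and 15 lowest LOC-only representatives, the 10 highest and lowest with an informative symbol, and the 2 highest and lowest unnamed probe sets, among called probe sets whose phases do not overlap. Added were each list's called members, its uncalled member of smallest adjusted p, the brightest member of a list with 0 calls, and the 5 brightest LOC-only genes. The 25 lists were matched by symbols and synonyms with edits by hand. Members, lists and rules were chosen with earlier results of these data known. Alternatives covered scaling, filter, pseudocount, background floor, arrays in the fit, replicate block, each left-out replicate, the 4-fold limit and, added after seeing the data, poly-A scaling and the 3-prime to 5-prime ratio as a covariate. No sequences are shown.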

Additional observations from a re-analysis of the deposited data

Results flagged for a closer look

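Signal also appeared among the 24446 probe sets that the filter on low mean signal left out of the tests. Of these, 33 were above background on all 3 P3 arrays and below it on all 3 P1 arrays, with a mean signal at P3 of at most 345. In the other direction, 37 were below background on all 3 P3 arrays and above it on all 3 P1 arrays. They were not tested in the comparison as reported.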

How the results depend on the processing

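Over all tested probe sets, 1303 were called higher and 839 lower once the 3-prime to 5-prime ratio entered the fit, and 1090 and 547 at a 4-fold limit on the fitted change. These were the alternatives that moved a count by over 1.5 times. Among LOC-only genes the covariate left 47 representatives and 69 probe sets called higher, against 77 and 113 without it. The ratio differed between the phases without overlap, so the covariate and the phase share part of their variation. Of the calls with the covariate, 1143 rises and 700 falls were among those made without it. Leaving out 1 array at a time gave 2734 to 3181 higher and 1630 to 1821 lower probe sets, 70 to 79 and 42 to 47 LOC-only representatives, and 103 to 114 and 59 to 65 of their probe sets. The 6 arrays of P3 and P1 alone gave 3024 and 1766. Of 59 genes or probe sets named for their size or brightness, 13 changed their call in at least 1 alternative. Those that turned direction were LOC542873 (-0.76) and LOC543438 (-0.64), both with the covariate, and the cause was not tested.

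With the replicate number as a block, 3044 probe sets were called higher and 1729 lower. Deviations of same-numbered P3 and P1 arrays from their phase means correlated at 0.012 to 0.032, and those of differently numbered arrays at -0.036 to 0.010. All are small, with the same-numbered ones slightly higher. Whether samples of the same number share a plot cannot be told from them. The dimmest calls are limited by signal over background: 57 rises and 5 falls were of probe sets below background on all 6 arrays.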

Other observations

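On the deposited signals, the P2 harvest at 15 days places the changes of the LOC-only genes in time. Of the 15 largest rises, the P2 mean lay between those of P1 and P3 in 12 genes and above both in 3, and of the 15 largest falls it lay between in 14 and above both in 1. LOC543263 was at 1199, 1283 and 1213 at 11 days and at 22417, 19237 and 21554 at 15 days. At 20 days it was at 14002, 13923 and 15422, so its highest deposited signals were at P2. LOC543396 was also highest at 15 days, its P1 signals being 138, 94.1 and 275, its P2 signals 2123, 2056 and 1992 and its P3 signals 1725, 1643 and 1518. For LOC542877 P1 gave 416, 302 and 370.2, P2 gave 43.7, 82.9 and 21.3 and P3 gave 4.41, 42.3 and 62.5, so that it was below background by 15 days. LOC100049032 was highest at P2 (286, 229 and 337), with P1 signals of 116, 159.96 and 238 and P3 signals of 72.5, 81.4 and 27.6. No test of these P2 positions was made. The poly-A controls had relative log2 signals of 0.605 to 0.659 on the P2 arrays. They were at -0.386 to -0.366 on the P3 arrays and at -0.304 to -0.221 on the P1 arrays. In each gene with a P2 mean above both others, the excess was smaller than this gap. Such a peak at 15 days thus rests on the deposited scaling. The positions were not recomputed after scaling to the poly-A controls.

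The unnamed probe set Ta.9227.1.S1_x_at had P1 signals of 12.1, 9.61 and 13.1, P2 signals of 18687, 19542 and 19027 and P3 signals of 43434, 41758 and 53998. For the unnamed Ta.27774.2.S1_at they were 3651, 3651 and 3659, then 9.61, 6.98 and 64.9 and then 7.77, 3.32 and 4.83, so this probe set was below background by 15 days.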
